A study of Mus musculus with 6 samples.

Results

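The arrays compared here asked how pre-selection thymocytes answered a strong ligand when both weak ligands were pooled: 2 arrays of cells held on MCC/I-Ek were set against 4 arrays of cells held on gp250/I-Ek or Hb/I-Ek, 2 of each. These 6 arrays are the whole series, and none is of unstimulated cells. Rises and falls given below are therefore differences from cells on the weak ligands. The cells were CD4+CD8+ thymocytes of AND.Rag1-/- mice on the H-2d background; every group shared the rearranged AND receptor transgene, the Rag1 deficiency and the non-selecting background. Stimulation on plate-bound I-Ek Ig dimers, each loaded with 1 peptide, lasted 7 h, and the labels call MCC a source of negative selection signals, gp250 of positive selection signals and Hb non-selecting. Of 25697 probes, 11942 had a detection p under 0.05 on at least 2 of the 6 arrays and were tested; 11234 of these name 8253 genes. Whether the arrays of a ligand stem from different animals or cultures is not in the labels; a p-value here therefore speaks of the spread among these 6 samples, possibly a technical one.

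A double-positive thymocyte carries both coreceptors and waits for its T cell receptor to meet self peptide on the major histocompatibility complex. Weak engagement lets such a cell survive and mature, and strong engagement leads to its deletion or to diversion. The early answer to strong engagement is known through a short set of genes for receptor signalling, death and recombination. The genes described here lie outside short lists of such genes, of which 141 were tested, and were grouped into families by place of action in the cell.

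The response to MCC was broad and of nearly equal size in both directions. In limma, 7225 of 11942 probes passed an adjusted p of 0.05 (60.5% of those tested), 3490 of them higher with MCC (29.2%) and 3735 lower (31.3%). Called at 2-fold or more were 2086 probes (17.5%), with 1070 higher (8.96%) and 1016 lower (8.51%). With the brightest probe standing for each gene, 5022 of 8253 genes were called (60.9%), 2357 higher (28.6%) and 2665 lower (32.3%), and at least 2-fold changes belonged to 720 genes that rose (8.72%) and 733 that fell (8.88%). Outside the selection genes the share was nearly the same: 60.4% of 8112 tested genes were called, 2273 higher and 2623 lower. The tail of very large changes was longer upwards, since 78 genes rose and 60 fell by at least 8-fold, and 9 rose and 0 fell by at least 32-fold by the fitted values. The MCC arrays and the other 4 did not overlap on 8275 probes (69.3%) and, at the brightest probe, on 5779 genes (70%). These directions are relative to the whole array. Mean deposited intensity was 582 to 613 on the MCC arrays and 445 to 488 on the others, and without scaling between arrays the median probe was 0.24 higher with MCC on the log2 scale, 5281 probes were called higher and 2194 lower.

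**Figure D1:**
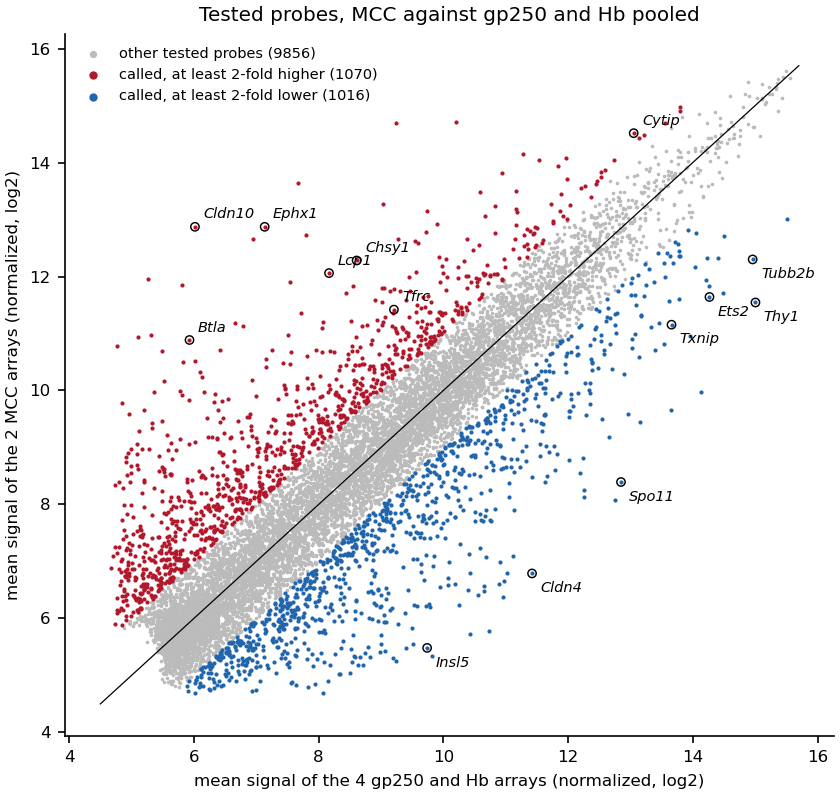
Mean normalized signal (log2) of each tested probe on the 4 gp250 and Hb arrays (horizontal axis) and on the 2 MCC arrays (vertical axis), with the line of equal signal. Probes called at least 2-fold higher (1070) or lower (1016) are coloured, the other tested probes are grey, and the circled genes are described in the text.

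The 2 weak ligands were close to each other. For 2082 of the 2086 probes called at least 2-fold the gp250 and Hb means lay within 1.5-fold of each other. The 4 exceptions were Srrd, Ccl3, Cpeb1 and Serinc5. Between gp250 and Hb, limma called 0 probes, and 782 had an unadjusted p under 0.05. The 4 weak-ligand arrays correlated with each other at r = 0.994 over the tested probes, as the replicates of each ligand did, and each MCC array correlated with them at 0.905 to 0.908. These correlations run across probes, which are not independent replicates. Of the 4717 probes not called, 4615 had a 95% interval of the difference that lay inside 2-fold, and 3522 inside 1.5-fold.

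The marker genes of the state separated the groups. Egr2, a transcription factor induced by receptor signals, read 13.60 and 13.69 with MCC, 7.47 and 7.51 with gp250, and 7.82 and 7.90 with Hb (normalized log2 signal). It was high on both MCC arrays and the groups did not overlap, a rise of 5.97 ± 0.14 (log2 fold change ± SE, limma adjusted p = 1.19e-07). Cd69, an early activation antigen, rose by 4.23 ± 0.10 and Cd5, a receptor that dampens T cell receptor signals, by 4.92 ± 0.11. Rag1, part of the recombinase, fell by 3.70 ± 0.10 and Dntt, the enzyme that adds nucleotides at receptor joins, fell by 4.67 ± 0.15. Other thymocyte markers were measured as well: Cd3e, a chain of the receptor complex, was bright on all 6 arrays at 13.78 on both MCC arrays and 13.56 to 13.69 on the others (difference 0.16 ± 0.08, limma adjusted p = 0.114). Cd8b1, a coreceptor chain, fell by 2.51 ± 0.10 on its brightest probe, and fell by 4.16 ± 0.09 on another. Cd4, the other coreceptor, was detected on all 4 weak-ligand arrays and on neither MCC array, at least 16.1-fold lower (limma adjusted p = 1.1e-07, measured means 5.35 with MCC and 9.82 without). Signal from the Rag1 probe stood above background on every array of these Rag1-/- cells, and whether it lies in the disrupted stretch was not analysed here, so it says nothing about the genotype. In bulk samples such as these, fewer cells of a kind and less RNA per cell cannot be told apart.

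Among genes outside the selection lists, Cldn10, a claudin of tight junctions, had the largest fitted rise. Its signal was 12.86 and 12.89 with MCC, 5.88 and 5.90 with gp250, and 6.05 and 6.24 with Hb. The MCC arrays lay far above the other 4, and the difference was 6.86 ± 0.11, or 116-fold (limma adjusted p = 9.23e-08). Another claudin gene, Cldn4, had the largest fall. It read 7.06 and 6.52 with MCC, 11.46 and 11.40 with gp250, and 11.43 and 11.40 with Hb. The MCC arrays were low without overlap, 24.8-fold below the others (log2 -4.63 ± 0.14, limma adjusted p = 2.47e-07).

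Btla, an inhibitory receptor of lymphocytes that binds the herpesvirus entry mediator HVEM, read 10.94 and 10.83 with MCC, 5.90 and 6.11 with gp250, and 5.58 and 6.12 with Hb. It was detected on 3 of the 4 weak-ligand arrays and rose by 4.96 ± 0.16 (limma adjusted p = 3.08e-07). Cd160, a receptor of the immunoglobulin superfamily that binds the same partner, read 10.96 and 10.99 with MCC, 5.09 and 5.26 with gp250, and 5.41 and 5.50 with Hb. It was not well above background on any weak-ligand array, so only a bound can be given: at least 39.5-fold higher with MCC. Bounds of this kind set the mean of the detected side against the lowest detected signal, or the probe's own where higher, on each array of the other side. Where a probe was detected on only some arrays of a group, the fitted difference is given with their number. Pou2af1, a coactivator of octamer-binding transcription factors, rose from 5.75 to 6.16 on the weak-ligand arrays to 10.52 and 10.51 with MCC (4.49 ± 0.12). Sh3bp2, an adaptor that binds signalling kinases, stood at 12.73 and 12.59 with MCC and 6.77 to 7.08 without it (5.71 ± 0.11). Both genes were apart on every array, which was a condition of the choice.

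The remaining large rises were of mixed kind. Ccnd2, cyclin D2 of the G1 phase, rose by 4.23 ± 0.15 to 10.16 and 10.48. Plk3, a polo-like kinase known for stress responses, rose by 4.68 ± 0.11 to 10.63 and 10.38 and was detected on 3 weak-ligand arrays. Gramd1b, which carries cholesterol from the plasma membrane to the endoplasmic reticulum, rose by 4.35 ± 0.11 to 11.15 and 11.11. Ephx1, the microsomal epoxide hydrolase, reached 12.95 and 12.80 from 7.02 to 7.25 on the other arrays (5.74 ± 0.10). Akr1c18, a hydroxysteroid dehydrogenase, was below background without MCC and at least 34.4-fold higher with it. Chn2, a GTPase-activating protein for Rac, was at least 15.1-fold higher, and Crhbp, which binds corticotropin-releasing hormone, at least 19.6-fold higher.

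Large falls took in secreted, surface and nuclear proteins. Plxdc1, a transmembrane protein with a plexin domain, read 6.32 and 6.45 with MCC, and no other array was under 10.92. It fell by 4.57 ± 0.08. Spo11, which makes the DNA breaks of meiotic recombination, fell by 4.45 ± 0.09 and still read 8.33 and 8.46 with MCC, against 12.73 to 12.91. Mzb1, a chaperone of the endoplasmic reticulum known from B cells and plasma cells, fell by 4.13 ± 0.11. P2rx1, an ATP-gated cation channel, fell by 4.09 ± 0.10. Smoc1, a secreted calcium-binding protein, fell by 4.14 ± 0.14, Endou, a poly(U)-cleaving endoribonuclease, fell by 4.22 ± 0.10, and B3gnt8, a glycosyltransferase that extends N-glycans, fell by 4.18 ± 0.11. Cbfa2t3, a corepressor of the ETO family, dropped by 4.01 ± 0.09 to 6.32 and 6.15, and Gm525 fell by 4.03 ± 0.08. Each of these genes was lower on both MCC arrays than on any of the other 4, which was a condition of the choice.

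**Figure D2:**
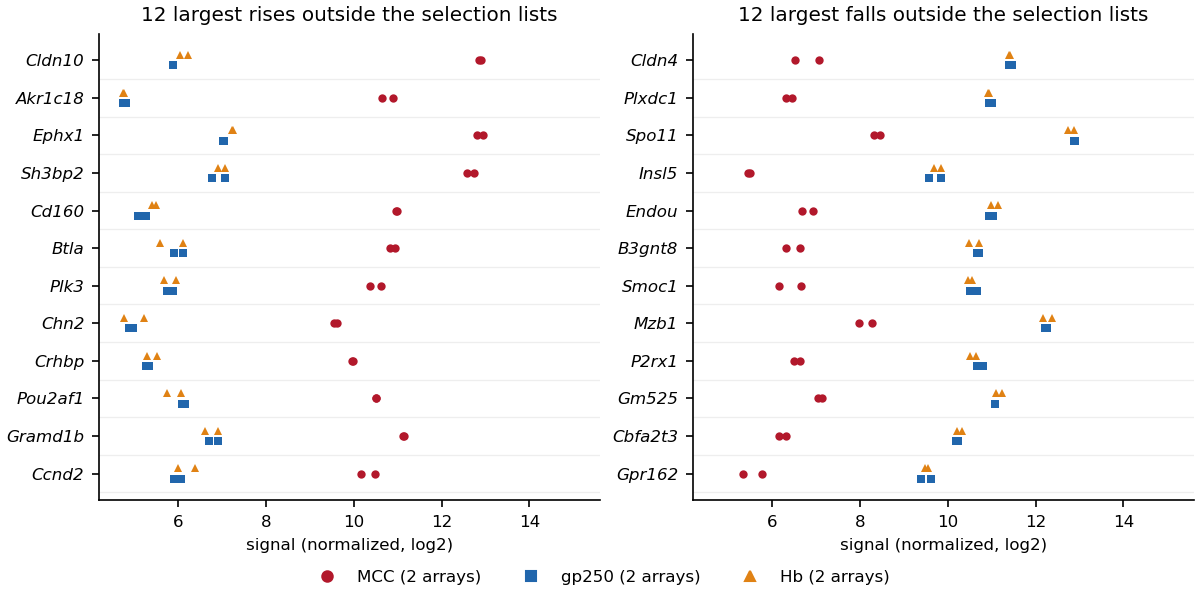
Normalized signal (log2, horizontal axis) on each array for the 12 genes with the largest fitted rises (left) and the 12 with the largest falls (right) outside the selection lists. In every row the 2 MCC arrays (circles) lie apart from the 2 gp250 (squares) and 2 Hb arrays (triangles), which cluster together. Genes were chosen only if the MCC arrays did not overlap the others, so this separation was a condition of the choice.

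Some transcripts crossed the detection limit. Detected on both MCC arrays and on no other were 237 probes, 140 of which are the brightest probe of a gene, and all 237 were called higher. Detected on all 4 weak-ligand arrays and on neither MCC array were 447 probes, 274 of them the brightest of a gene, and 404 were called lower. The 237 probes passed the detection filter only through the MCC arrays. The rule that picks either set goes far towards fixing the call, so these calls are no separate support. Nfe2, a basic leucine zipper factor known from megakaryocytes, read 9.40 and 9.28 with MCC, 5.29 and 5.17 with gp250, and 5.44 and 5.38 with Hb. It was at least 12.7-fold higher with MCC. Gpr174, a receptor for lysophosphatidylserine, was at least 9.91-fold higher and read 9.01 and 8.95 with MCC. The DNA-binding protein gene Arid5b was at least 9.90-fold higher, and Bcat1, the cytosolic enzyme that starts the breakdown of branched-chain amino acids, at least 9.88-fold higher.

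Among genes lost from detection, Insl5, a peptide of the insulin and relaxin family, read 5.50 and 5.46 with MCC, 9.85 and 9.58 with gp250, and 9.84 and 9.69 with Hb. It was at least 15.3-fold lower with MCC. Rapgef3, an exchange factor that cyclic AMP turns on to activate Rap, read 5.57 and 5.41 with MCC, 9.49 and 9.41 with gp250, and 9.30 and 9.40 with Hb. It was at least 12.1-fold lower. Gpr162, an orphan receptor, was at least 13.05-fold lower, Slc7a11, the cystine and glutamate exchanger, at least 10.4-fold and Kcnh3, a voltage-gated potassium channel, at least 9.11-fold. Prodh, the mitochondrial enzyme that oxidises proline, was at least 9.09-fold lower, Gramd3 at least 7.88-fold and Esrp2, an RNA-binding protein that sets epithelial splicing, at least 7.70-fold. Of the 233 genes followed under other settings, 0 changed direction, including without scaling between arrays. Most were chosen for called changes without overlap on these same arrays, so this is no independent check.

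**Figure D3:**
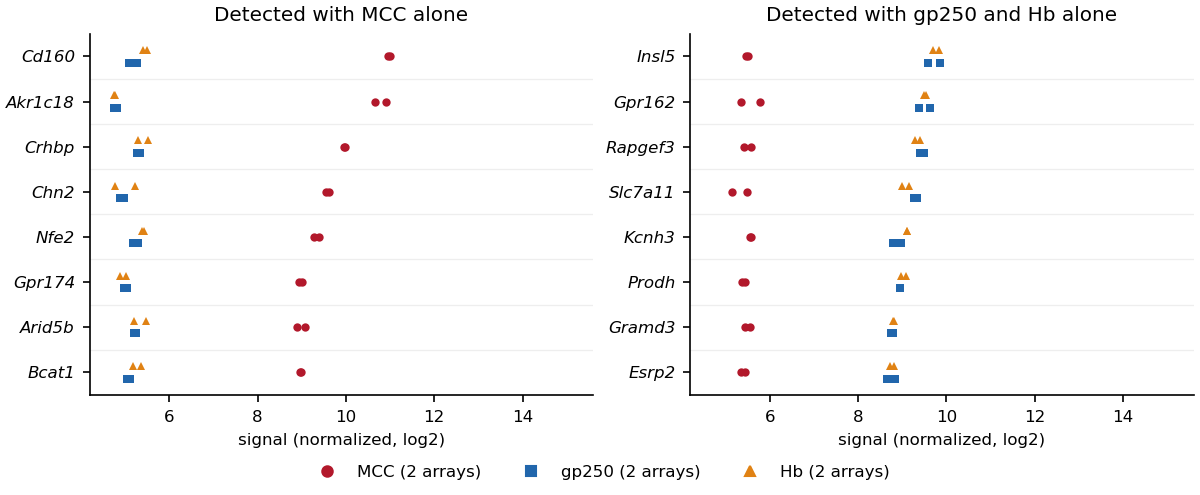
Normalized signal (log2, horizontal axis) on each array for the 8 brightest genes detected on both MCC arrays and on no other (left), and the 8 brightest detected on all 4 gp250 and Hb arrays and on neither MCC array (right). The signals below about 6 are not well above background, so their order carries no information.

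The promoters of the genes that rose and of those that fell were compared for short motifs. RefSeq windows of 300 bases on GRCm38.p6, 250 before and 50 after the gene's start, were matched by Entrez number for 6771 of the 8253 tested genes, 590 of them called at least 2-fold higher and 607 at least 2-fold lower. Each of 10 motifs was searched on both strands, and matches of the EGR and SP1 motifs can share bases. The E-box CACGTG, which MYC, USF and TFE proteins are known to bind, was in 16.1% of the windows of genes that rose, 8.07% of those that fell, 10.2% of all tested genes and 7.3% of all 26794 promoters. For the ETS motif CCGGAAGT the shares were 9.83%, 2.14%, 9.13% and 4.03% in the same order. For CRE, TGACGTCA, the site of CREB and ATF proteins, they were 4.92%, 0.824%, 3.25% and 1.89%. The 59 windows of genes that rose at least 8-fold held a CRE in 1 (1.69%), an E-box in 9 (15.3%) and an ETS match in 5 (8.47%). These counts are too small to set the shares above or below those of all tested genes. Of the 42 windows of genes that fell at least 8-fold, 0 held a CRE or an ETS match and 1 an E-box. EGR sites, GCGTGGGCG or GCGGGGGCG, had nearly equal shares among rising and falling genes (7.46% and 7.58%, against 6.23% of tested genes and 3.52% of all promoters).

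AP-1, searched as TGANTCA, was in 5.25% of rising and 4.28% of falling genes' windows (tested genes 5.04%, all 7.98%), SP1 (GGGCGGGGC) in 24.7% and 27.2% (23.0%, 11.5%) and NFY (CCAAT) in 36.3% and 38.6% (39.7%, 38.1%). The TATA box, TATAAA, was in 9.32% and 5.77% (7.75%, 14.2%) and E2F (TTTCCCGC) in 1.36% and 2.31% (2.19%, 1.12%). Matches of the ATF4 C/EBP motif TGATGCAA were few, 10 windows of rising and 2 of falling genes (1.69% and 0.329%, against 0.620% and 0.911%). Median GC content was 61.0% for rising, 61.7% for falling and 60.7% for all tested genes. These shares are descriptions of letters in a window, with no test of binding or of the difference.

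**Figure D4:**
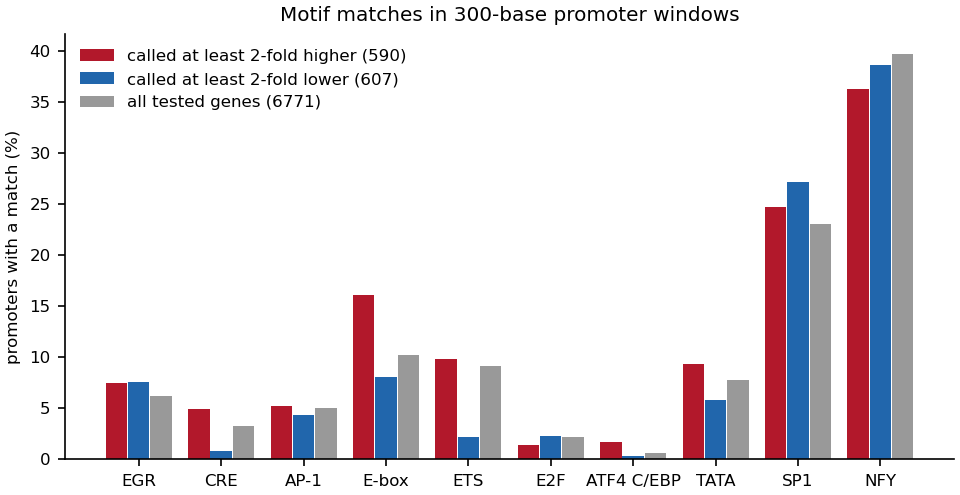
Share of 300-base promoter windows (%) with at least 1 match to each motif, among genes called at least 2-fold higher with MCC (590), called at least 2-fold lower (607) and all tested genes with a window (6771). The E-box, CRE and ETS bars of falling genes lie below those of rising genes, 8.07% against 16.1% for the E-box.

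For the E-box, CRE and ETS motifs each, the windows below show the 2 genes with the largest rise, chosen after their values were seen. The choice was made among called genes outside the selection lists, without overlap and detected on both MCC arrays, and not every chromosome was considered. The windows show how the motifs lie in the start region of genes that rose. These motifs are a part of the 10 searched and had higher shares among rising than falling genes. The ETS share of rising genes, 9.83%, was near the 9.13% of all tested genes. Capitals mark E-box, CRE and ETS matches. Each sequence is RefSeq's, on GRCm38.p6, written 5′ to 3′ on the strand of the gene. Btla lies at chr16:45224087-45224386 (plus strand), Chsy1 at chr7:66109242-66109541 (plus), Trmt61a at chr12:111677855-111678154 (plus), Plk2 at chr13:110394794-110395093 (plus) and Grwd1 at chr7:45830740-45831039 (minus).
Btla: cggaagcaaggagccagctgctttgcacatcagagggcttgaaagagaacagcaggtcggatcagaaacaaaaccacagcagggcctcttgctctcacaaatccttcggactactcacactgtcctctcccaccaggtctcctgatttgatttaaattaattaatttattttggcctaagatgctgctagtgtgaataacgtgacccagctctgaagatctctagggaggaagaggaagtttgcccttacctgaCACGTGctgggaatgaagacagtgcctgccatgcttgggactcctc
Chsy1: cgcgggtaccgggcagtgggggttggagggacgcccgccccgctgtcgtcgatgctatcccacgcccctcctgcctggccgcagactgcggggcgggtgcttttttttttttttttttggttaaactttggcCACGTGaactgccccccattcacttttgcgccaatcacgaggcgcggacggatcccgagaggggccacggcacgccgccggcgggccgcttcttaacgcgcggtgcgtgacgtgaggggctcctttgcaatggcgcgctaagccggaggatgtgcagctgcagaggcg
Trmt61a: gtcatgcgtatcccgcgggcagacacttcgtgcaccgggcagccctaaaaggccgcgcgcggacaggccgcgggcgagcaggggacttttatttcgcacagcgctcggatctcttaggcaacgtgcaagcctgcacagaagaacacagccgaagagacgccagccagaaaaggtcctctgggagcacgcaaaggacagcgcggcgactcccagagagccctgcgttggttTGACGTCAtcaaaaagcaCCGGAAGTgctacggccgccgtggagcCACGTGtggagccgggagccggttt
Plk2: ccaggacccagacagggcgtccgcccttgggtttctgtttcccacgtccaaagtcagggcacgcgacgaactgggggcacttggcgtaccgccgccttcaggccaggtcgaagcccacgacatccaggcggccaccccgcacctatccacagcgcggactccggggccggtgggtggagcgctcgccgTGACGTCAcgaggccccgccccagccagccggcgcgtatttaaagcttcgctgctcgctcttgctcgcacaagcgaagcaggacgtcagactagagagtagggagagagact
Grwd1: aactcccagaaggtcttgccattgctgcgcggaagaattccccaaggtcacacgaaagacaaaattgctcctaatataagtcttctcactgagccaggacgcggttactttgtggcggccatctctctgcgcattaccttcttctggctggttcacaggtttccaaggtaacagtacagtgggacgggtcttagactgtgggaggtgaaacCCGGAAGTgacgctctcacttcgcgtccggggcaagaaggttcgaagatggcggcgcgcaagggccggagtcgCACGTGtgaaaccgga

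Trmt61a, the catalytic subunit of a transfer RNA methyltransferase, holds all 3 motifs and is shown for both CRE and ETS. It read 11.39 and 11.31 with MCC, 7.88 and 7.82 with gp250 and 7.64 and 7.54 with Hb. The groups did not overlap, and the rise was 3.64 ± 0.11 (limma adjusted p = 2.6e-07). Grwd1, a nucleolar protein known in ribosome assembly, holds an E-box and an ETS match and rose by 3.32 ± 0.19, from 5.81 to 6.47 up to 9.40 and 9.65. Chsy1, which builds chondroitin sulfate, read 12.32 and 12.24 with MCC and 8.59 to 8.64 without it (3.67 ± 0.07). Plk2, a polo-like kinase, holds a CRE and rose by 2.92 ± 0.18 to 8.39 and 8.19, with detection on 1 of the 4 weak-ligand arrays.

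The families that follow were read against the background of all tested genes, of which 28.6% were called higher and 32.3% lower, with a median absolute change of 0.40 (log2). Members were placed by name, no list was tested as a set, and counts without scaling between arrays stand beside each family whose balance turns under that setting, where 3634 genes were higher and 1552 lower.

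In the nucleus, basic helix-loop-helix proteins bind E-boxes, and the Id proteins keep some of them, such as the E proteins, from DNA. Of 16 tested members 5 were higher and 5 lower (6 and 5 without scaling, 2 and 5 on the authors' processed table), and 2 or 3 were higher without MCC replicate 1, MCC replicate 2 or Hb replicate 1. Id1 fell below background on both MCC arrays, at least 3.02-fold lower, and Id2 fell to 5.99 and 6.33 from 7.55 to 7.80 on the other arrays. Id3, the member known to be induced through the receptor and Egr proteins, rose by 0.71 ± 0.09, at 10.31 and 10.43 with MCC, 9.53 and 9.73 with gp250, and 9.64 and 9.73 with Hb. The E protein gene Tcf12, or HEB, fell by 1.69 ± 0.10. The 3 Id genes thus went in different directions.

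ETS and RUNX factors had 7 higher and 6 lower of 21 tested. Ets2 carried a bright signal and read 11.70 and 11.58 with MCC, 14.32 and 14.31 with gp250, and 14.16 and 14.27 with Hb. It fell by 2.63 ± 0.08, and Fli1 fell by 1.07 ± 0.12. Runx1 rose by 0.95 ± 0.13 and Etv5, an ETS factor of the PEA3 group and detected on 1 weak-ligand array, by 1.41 ± 0.17. Among BTB zinc finger factors, 6 of 25 were higher and 8 lower, which turned to 12 and 6 without scaling. Hic1, a repressor, was at least 3.51-fold higher and Zbtb38, which binds methylated DNA, at least 2.93-fold higher, while the repressor gene Zbtb18 fell by 2.30 ± 0.14 and Bach1 fell by 1.06 ± 0.19.

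SOX, TOX and HMG-box genes had 4 higher and 6 lower of 16 (7 and 4 without scaling). Hbp1, a brake on cell cycle genes, fell by 1.41 ± 0.08 to 11.62 and 11.72 with MCC, and Tox3, detected on neither MCC array, was at least 1.43-fold lower. Of 18 nuclear receptors and coregulators 1 was higher and 7 were lower (44.4% called, against 60.9%), which turned to 7 and 3 without scaling. Nr2f6, an orphan receptor, was the 1 member called higher (1.24 ± 0.10, detected on 3 weak-ligand arrays). The number higher was 2 or 3 with a common median, an offset of 50, the trend and robust model, 1 mean per ligand, the replicate block, gp250 alone as the other side, probes detected on all 6 arrays, or without MCC replicate 1, either gp250 replicate or Hb replicate 1. As to coregulators, Ncoa1, a coactivator, fell by 0.87 ± 0.08.

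Genes of mRNA decay split evenly, 12 higher and 12 lower of 40 (18 and 6 without scaling), with 7 lower without MCC replicate 1. Zfp36l1, which directs AU-rich messages to decay, read 14.44 and 14.52 with MCC, 13.27 and 13.25 with gp250, and 13.23 and 13.13 with Hb. It rose by 1.26 ± 0.08, and the exosome genes Exosc1 and Exosc2 rose by 1.20 ± 0.10 and 1.03 ± 0.09. Xrn1, the exonuclease that removes decapped messages, fell by 1.63 ± 0.11.

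Histone genes had 10 higher and 19 lower of 43 (16 and 14 without scaling), and 5 were higher without MCC replicate 2. H1f2, a linker histone, read 8.74 and 8.83 with MCC, 12.14 and 12.09 with gp250, and 11.88 and 11.96 with Hb. It fell by 3.24 ± 0.10, H2bc18 fell by 2.41 ± 0.15, and H3c3 rose by 1.97 ± 0.17. H2ac7, H2ac12 and H2ac15, among the brightest probes that fell, changed by -0.73 ± 0.09, -0.75 ± 0.11 and -0.68 ± 0.10. Histone genes have near-identical copies, so which copy a probe reads is uncertain, and the 3 H2A values may not be separate measurements.

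In the cytosol and its membrane, 83.7% of 49 tested genes of G proteins, their RGS regulators and receptors were called, against 60.9% of all genes, with 19 higher and 22 lower (22 and 14 without scaling). Of these, 11 rose and 7 fell at least 2-fold. Gpr183, which guides lymphocytes by oxysterols, read 8.22 and 7.93 with MCC, 5.86 and 5.97 with gp250, and 5.49 and 5.70 with Hb. It was detected on 2 of the 4 weak-ligand arrays and rose by 2.32 ± 0.15, and the orphan receptor Gpr146 was at least 3.64-fold higher. Lpar6, a receptor for lysophosphatidic acid, read 12.31 and 12.35 with MCC, 14.23 and 14.22 with gp250, and 14.26 and 14.20 with Hb. It fell by 1.90 ± 0.07, and Lpar4, another receptor for this lipid, was at least 1.83-fold lower.

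Genes that make, break or answer cyclic nucleotides leaned downwards, 5 higher and 16 lower of 32 (10 and 12 without scaling). Adcy6, an adenylyl cyclase, fell by 2.58 ± 0.09 to 8.53 and 8.77 and Akap12, a scaffold for protein kinase A, fell by 2.33 ± 0.07, beside the loss of Rapgef3. Crem, a cyclic AMP-responsive factor, went the other way and rose by 2.11 ± 0.13. Pde4d, a cyclic AMP phosphodiesterase, rose by 0.94 ± 0.09.

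MAP kinase genes had 11 higher and 10 lower of 31. Mapk11, or p38 beta, read 9.90 and 9.90 with MCC, 7.13 and 7.07 with gp250, and 6.85 and 6.93 with Hb. It rose by 2.90 ± 0.10 with no overlap, Mapkapk2, a kinase that p38 activates, rose by 1.42 ± 0.11, and Map2k6, a kinase that activates p38, fell by 1.69 ± 0.09. Map3k8, also called Tpl2, was at least 2.70-fold higher. Genes of the same p38 route thus moved in both directions.

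The phosphoinositide, AKT and TOR list had 5 higher and 21 lower of 46, and 13 and 12 without scaling. Pik3ip1, an inhibitor of phosphoinositide 3-kinase, read 7.90 and 7.93 with MCC, 10.88 and 10.78 with gp250, and 10.79 and 10.84 with Hb. It fell by 2.91 ± 0.07, and Pik3r1, the regulatory subunit p85 alpha, fell by 1.32 ± 0.09. Rheb, the GTPase that turns on TOR complex 1, was the largest rise of the list at 1.74 ± 0.08. Among PIM, calmodulin-dependent, DAPK, DYRK, tribbles and related kinases, 9 were higher and 15 lower of 37 (12 and 11 without scaling). Stk17b, a death-associated kinase of lymphocytes, rose by 1.98 ± 0.09, Pim1, a survival kinase, was at least 3.54-fold lower, Clk3, which phosphorylates splicing factors, fell by 2.22 ± 0.07 and Trib2, a pseudokinase, fell by 1.86 ± 0.07.

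Ras and Rap genes had 9 higher and 14 lower of 33 (16 and 7 without scaling). Rem2, a GTPase of the RGK group detected on 1 weak-ligand array, rose by 2.96 ± 0.09, Rapgef6, an exchange factor for Rap, by 2.04 ± 0.13, and Rras2 fell by 1.45 ± 0.16. For ARF and ARL GTPases 10 were higher and 10 lower of 38 (18 and 3 without scaling). Cytip, which binds the exchange factor cytohesin-1, read 14.55 and 14.49 with MCC, 13.04 and 13.05 with gp250, and 13.04 and 13.07 with Hb. It rose by 1.46 ± 0.07, and Cyth1, cytohesin-1 itself, fell by 0.79 ± 0.09. Of 30 TRIM genes 4 were higher and 10 lower (6 and 4 without scaling), and 0 were called at 2-fold or more.

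Of the cytoskeleton, actin genes and their regulators had 30 higher and 25 lower of 78 (42 and 12 without scaling). Lcp1, or L-plastin, which bundles actin in leukocytes, read 12.03 and 12.09 with MCC, 8.16 and 8.03 with gp250, and 8.11 and 8.36 with Hb. It rose 14.9-fold, by 3.89 ± 0.10 (limma adjusted p = 1.6e-07), the largest rise of the list. Capg, which caps actin filaments, rose by 1.85 ± 0.11 and Swap70, an actin-binding protein of lymphocytes, by 1.69 ± 0.13. Pdlim4, a PDZ and LIM domain protein at actin fibres, fell by 3.50 ± 0.08 and Abi3, of the family of WAVE complex subunits, fell by 2.61 ± 0.08. Tmsb10, a thymosin that binds actin monomers, was among the brightest probes that rose (1.10 ± 0.08).

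Myosins had 4 higher and 7 lower of 17 (5 and 5 without scaling). Myo1f, a class I myosin of leukocytes, fell by 2.46 ± 0.13. The near-identical light chain genes Myl12a and Myl12b went apart, 0.78 ± 0.15 and -1.06 ± 0.07, and RNA of one may reach the probe of the other.

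Tubulin, kinesin and dynein genes had 4 higher and 22 lower of 56, which turned to 20 and 11 without scaling. Tubb2b, a beta tubulin, read 12.21 and 12.39 with MCC, 14.99 and 15.04 with gp250, and 14.92 and 14.90 with Hb. It fell by 2.66 ± 0.09, and Tube1, epsilon tubulin of the centriole, fell by 3.19 ± 0.09. Mapre2, an end-binding protein of microtubules, rose by 2.79 ± 0.09, at 10.55 and 10.66 with MCC, 7.71 and 7.93 with gp250, and 7.89 and 7.75 with Hb. These 3 genes kept their direction without scaling. That setting put the median probe at 0.24 (log2), against -0.03 in the reported fit. Single probes could move by more, as H2ac10 went from -0.60 to -0.27. The changes of the 3 genes were far larger.

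At the cell surface, 85.7% of 14 tested genes of LY6 and other GPI-anchored proteins were called, 5 higher and 7 lower, with a median absolute change of 1.33 against 0.40 over all tested genes. Thy1, the thymocyte antigen, read 11.44 and 11.65 with MCC, 15.08 and 15.08 with gp250, and 14.99 and 14.88 with Hb. It fell by 3.46 ± 0.10 and Ly6d, an antigen of early lymphocytes, fell by 3.40 ± 0.10. Lypd6b was at least 4.93-fold lower. Prnp, the prion protein, rose by 1.61 ± 0.10 and Nt5e, or CD73, which makes adenosine from AMP, was at least 1.91-fold higher.

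Tetraspanins had 7 higher and 5 lower of 15. Cd9 rose by 1.76 ± 0.10, at 7.98 and 7.99 with MCC, 6.05 and 6.28 with gp250, and 6.21 and 6.36 with Hb, and Tspan2 and Tspan32 changed by -2.06 ± 0.10 and -1.49 ± 0.08. Galectins, annexins and S100 proteins had 5 higher and 7 lower of 17 (6 and 6 without scaling). Anxa2 read 12.16 and 12.19 with MCC, 14.04 and 14.02 with gp250, and 14.03 and 14.04 with Hb. It fell by 1.86 ± 0.07, Anxa6 fell by 1.70 ± 0.10 and Lgals9 fell by 1.44 ± 0.13, while Lgals7, detected on 3 weak-ligand arrays, rose by 2.22 ± 0.19. Both annexins bind membranes when calcium rises.

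Guidance proteins, known for steering axons and also cell movement, had 3 higher and 8 lower of 22 (6 and 5 without scaling), and 5 were lower without MCC replicate 2. Plxnd1, a semaphorin receptor known to act in thymocyte migration, read 6.02 and 6.19 with MCC, 8.67 and 8.68 with gp250, and 8.66 and 8.69 with Hb. It fell by 2.57 ± 0.08, and the coreceptor gene Nrp1 fell to 7.92 and 8.23 from 9.45 to 9.65. Sema4a rose by 1.53 ± 0.15. Among cadherin, gap and tight junction genes, 3 were higher and 7 lower of 21 (4 and 4 without scaling), and 4 were lower without MCC replicate 2, gp250 replicate 2 or Hb replicate 2. The list held both Cldn10 and Cldn4. Pvr, an adhesion molecule bound by DNAM-1 and TIGIT, fell by 2.21 ± 0.13.

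Proteases and their inhibitors had 6 higher and 17 lower of 39 (13 and 14 without scaling). Cela1, a pancreatic-type elastase, was not well above background without MCC and at least 8.004-fold higher with it, at 8.69 and 8.65. Cst7, an inhibitor of cathepsins, rose by 1.73 ± 0.12 and was detected on 1 weak-ligand array. The calpain genes Capn5 and Capn3 changed by -3.01 ± 0.12 and -2.91 ± 0.08. Adam12, a membrane metalloprotease, fell by 1.62 ± 0.10.

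The WNT and beta-catenin list leaned downwards, 8 higher and 19 lower of 37 (8 and 15 without scaling), with a median of -0.46 against -0.04 over all tested genes. Groucho corepressor genes went both ways: Tle6 fell by 3.58 ± 0.09 and Tle2 was at least 5.19-fold lower, while Tle3 and Tle4 rose by 1.55 ± 0.22 (detected on 3 weak-ligand arrays) and 1.28 ± 0.09. Tle4 read 11.77 and 11.89 with MCC, 10.56 and 10.48 with gp250, and 10.65 and 10.50 with Hb. Kremen1, a receptor for the WNT inhibitor DKK1, fell by 3.02 ± 0.10, at 7.77 and 7.68 with MCC, 10.75 and 10.65 with gp250, and 10.65 and 10.94 with Hb. The Tle genes were named for large called changes without overlap in each direction, so their distance from the spread between arrays was a condition of the choice. Over all tested genes, 28.6% were called higher and 32.3% lower.

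Genes of the TGF-beta, BMP and activin pathway had 4 higher and 16 lower of 31 (6 and 9 without scaling). Fst, or follistatin, a secreted inhibitor of activin, read 10.54 and 10.80 with MCC, 7.58 and 7.51 with gp250, and 7.60 and 7.51 with Hb. It rose by 3.12 ± 0.09. Among receptors, Tgfbr2 rose by 0.92 ± 0.08, Tgfbr3 fell by 2.29 ± 0.08, Acvr2b, an activin receptor, fell by 1.88 ± 0.07, and Eng, an accessory receptor, was at least 2.78-fold lower.

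In metabolism, iron, heme and iron-sulfur genes had 14 higher and 10 lower of 41 (23 and 6 without scaling), and 3 rose and 0 fell at least 2-fold. Tfrc, the transferrin receptor, read 11.39 and 11.45 with MCC, 9.09 and 9.12 with gp250, and 9.31 and 9.30 with Hb. It rose by 2.21 ± 0.10, Alad, an enzyme of heme synthesis, by 1.85 ± 0.09 and Bola3, of iron-sulfur cluster assembly, by 1.42 ± 0.08. Hfe, which regulates iron uptake, had the largest fall of the list, and fell by 0.82 ± 0.11.

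Antioxidant, thioredoxin and glutathione genes had 25 higher and 19 lower of 67 (35 and 12 without scaling), and 12 were lower without MCC replicate 2. Ggct, an enzyme of glutathione turnover, rose by 3.36 ± 0.10 to 9.08 and 9.21 and was detected on 3 weak-ligand arrays. Txnip, which binds thioredoxin and restrains glucose uptake, read 11.22 and 11.09 with MCC, 13.76 and 13.63 with gp250, and 13.58 and 13.67 with Hb. It fell by 2.50 ± 0.09. The sestrin genes went apart, as Sesn3, detected on 1 weak-ligand array, rose by 1.84 ± 0.13 and Sesn1 fell by 1.87 ± 0.09.

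Phospholipid and sphingolipid genes had 19 higher and 29 lower of 74 (29 and 18 without scaling), and 12 were higher without MCC replicate 1. Pld3 rose by 1.43 ± 0.10, Plcl2, a phospholipase C-like protein, by 1.40 ± 0.09, and Gpat3, which starts glycerolipid synthesis, was at least 3.20-fold lower. Peroxisome genes had 8 higher and 15 lower of 37 (17 and 7 without scaling). Pex11a, which acts in the division of peroxisomes and was detected on 1 weak-ligand array, rose by 2.02 ± 0.11, Lonp2, their protease, by 1.18 ± 0.07, and Acox3, an acyl-CoA oxidase, fell by 1.40 ± 0.08.

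**Figure D5:**
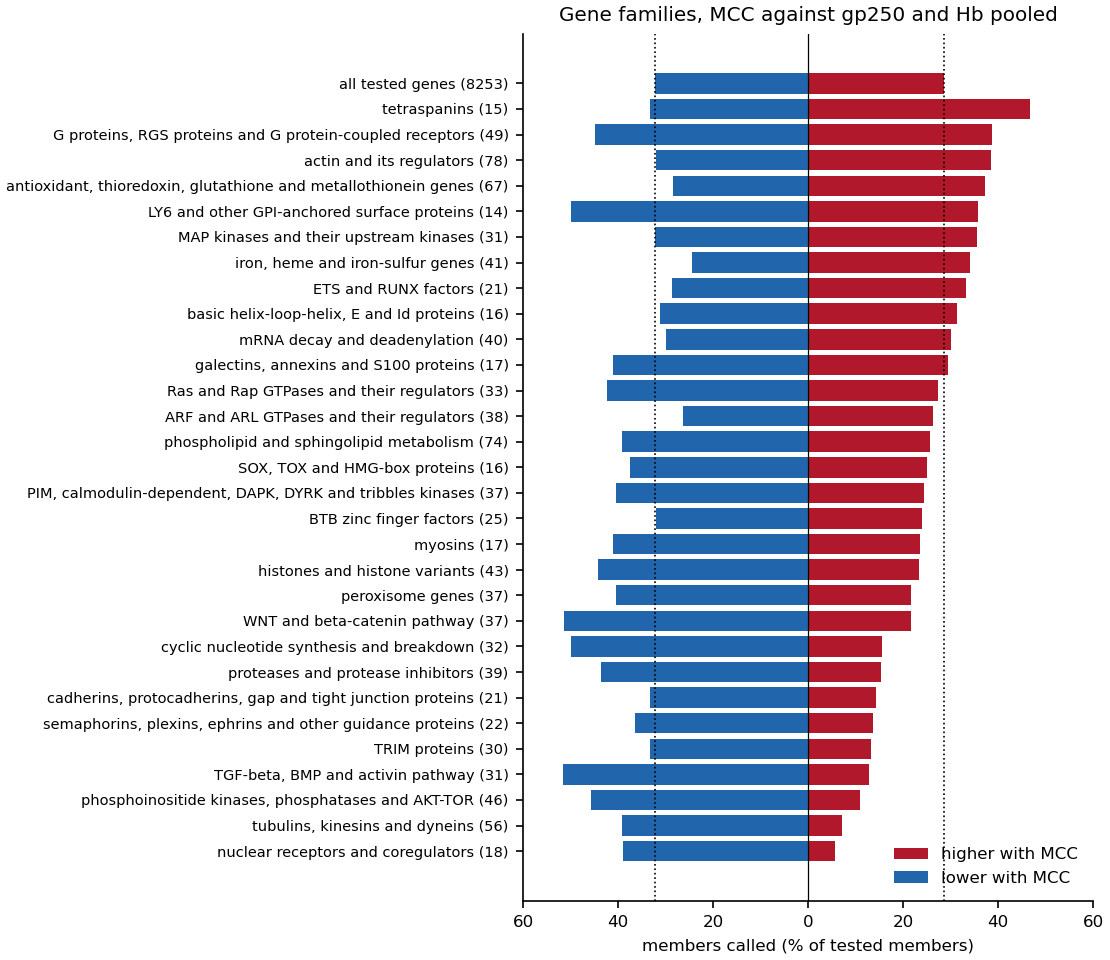
Share of tested members (%) called higher (right) or lower (left) with MCC in each gene family described, with the number tested in brackets and dotted lines at the shares of all 8253 tested genes (28.6% and 32.3%). Without scaling between arrays the balance of all genes turns to 3634 higher and 1552 lower. Nuclear receptors, tubulins, peroxisome, phospholipid, Ras and BTB genes are then among the many families with more members higher than lower.

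Probes with the highest signals changed too. Of those called at 1.5-fold or more, the brightest that rose were Rpl10 (0.75 ± 0.07) and Rps2 (0.97 ± 0.09) of the ribosome, Cd27 (1.18 ± 0.07), a costimulatory receptor, Tmsb10, Gapdh (1.13 ± 0.08) of glycolysis, Rnaset2b (0.63 ± 0.07), Lrp10 (0.95 ± 0.08) and Zfp36l1. Cd27 read 14.96 and 14.99 with MCC, 13.81 and 13.81 with gp250, and 13.75 and 13.79 with Hb. Satb1, an organiser of thymocyte chromatin, was the brightest that fell, at 14.46 and 14.47 with MCC, 15.13 and 15.13 with gp250, and 15.02 and 15.04 with Hb. It changed by -0.62 ± 0.08, Wbp2 by -0.76 ± 0.08, Hsd3b2 by -0.67 ± 0.07 and H2ac10 by -0.60 ± 0.08. Tubb2b, also among the brightest that fell, was 6.32-fold lower.

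Precision rose with the signal. In 5 equal bins of mean signal, from dim to bright, 39.1%, 59.3%, 67.9%, 68.3% and 69.7% of genes were called, and the median standard error fell from 0.15 to 0.08 (log2). At least 2-fold changes were counted 148 up and 56 down among the dimmest genes, and 78 up and 162 down among the brightest. The mean signal was taken over all 6 arrays, of which 4 are weak-ligand arrays. A gene high with MCC alone thus falls in a dimmer bin than one high with the weak ligands alone. The directions per bin follow in part from this binning and from the detection filter. The number of arrays limits the precision.

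Markers of other cells differed by list. Summed signals of myeloid and NK markers were close between the groups, and those of B cell, stromal and erythroid markers were lower with MCC. Of the markers, 5 of 11 myeloid and 6 of 9 NK were detected on no array. Their sums are thus in good part background, so close sums do not show equal amounts of these cells. Summed normalized signal over 11 myeloid and dendritic markers was 865 to 872 with MCC and 859 to 918 without it, and Itgam, Itgax, Adgre1, Tyrobp and H2-Aa were detected on no array. H2-Ab1, a class II chain, rose by 0.60 ± 0.11 and Siglech, of plasmacytoid dendritic cells, fell by 0.87 ± 0.18. For 9 NK and innate markers it was 311 to 333 and 326 to 355, with Ncr1, Eomes, Gzma, Klrb1c, Klrd1 and Klrk1 undetected. Of the 2 tested, Nkg7, a granule protein of killer cells, rose by 1.11 ± 0.11 and Il18r1, a chain of the interleukin-18 receptor, was at least 2.86-fold lower. B cell markers (8) summed to 381 to 437 with MCC and 1463 to 1519 without it. Cd79b, a chain of the B cell receptor complex, read 7.79 and 7.76 with MCC, 10.18 and 10.21 with gp250, and 10.17 and 10.18 with Hb, and Vpreb1 fell by 1.17 ± 0.21, while Pax5, Blnk, Cd22 and Vpreb3 were undetected. Stromal and epithelial markers (7) summed to 550 to 559 and 1343 to 1505, and Pecam1 fell by 1.68 ± 0.08 and the keratin gene Krt8 rose by 0.35 ± 0.11 (not called in 4 fits that left out 1 array) while Foxn1, Krt5, Col1a1, Col3a1 and Pdgfrb were undetected. Erythroid markers (4) summed to 2416 to 2476 and 3163 to 4338, with Hba-a1 lower by 0.59 ± 0.13, Klf1, an erythroid transcription factor, higher by 0.57 ± 0.20 (detected on 1 MCC and 1 weak-ligand array, not called in 4 fits that left out 1 array), and Alas2 and Slc4a1 undetected. Klf1 was also not called with the replicate block, a common median, the authors' processed table, no filter on dim probes or Hb alone as the other side. Krt8 was also not called under the trend and robust model or with gp250 alone as the other side. The part of such cells in the falls described above was not tested.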

How the data were processed

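The 6 arrays are Illumina mouse expression arrays with 1 colour; per the labels' protocols, total RNA was isolated with Qiagen RNeasy and amplified with the Ambion MessageAmp kit. Per the file headers, a raw (non-normalized) intensity per probe and array was deposited by the authors, with a detection p-value beside it. The deposited intensity goes below 0, so a background had been subtracted; the sources used here do not name the scanner software. Groups and replicate numbers came from the sample titles.

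In R 4.3.3 with limma 3.58.1, neqc corrected the background (normexp with the detection p-values, offset 16), quantile-normalized the arrays and took log2. The offset pulls fold changes of dim probes towards 0. Probes with a detection p under 0.05 on at least 2 arrays were fitted with 2 means, MCC and the weak ligands pooled. Moderated tests were adjusted by Benjamini-Hochberg over all tested probes, and an adjusted p under 0.05 was called. Errors are standard errors unless SD is written. The fit was tested on simulated data.

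The platform annotation gives 1 symbol for 23978 of 25697 probes and none here for 1719, and 23962 were matched by Entrez number to RefSeq's GRCm38.p6 table. The brightest tested probe stands for a gene; 2137 genes had more than 1. Same-numbered arrays did not deviate together (correlations of 0.02, -0.00 and -0.02 between ligands), so the numbers were not used as pairs.

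The comparison, gene lists and markers were chosen with earlier results of these data known. The rule for named genes took, outside the selection lists, the 12 largest rises and 12 largest falls called and detected on every array of the higher side with no overlap, the 8 brightest called at 1.5-fold or more in each direction, the 8 brightest detected on 1 side alone, up to 3 members of each family in each direction, and the 5 markers. Of 32 families, that of noncoding host transcripts had no named probe and was not analysed here, and 1 other is not reported here. The authors' processed table served as an alternative; the other alternatives changed background, offset, scaling, probe filter, variance model, weak ligand or arrays used.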

Additional observations from a re-analysis of the deposited data

Results flagged for a closer look

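On 12 of 233 named genes, 1 of the 4 weak-ligand arrays stood apart from the other 3: its gap to the nearest, divided by the range of the 4, was above Dixon's 95% limit for 4 values. Chance flags about 1 in 20 such groups of 4 arrays, and 12 of 233 is near that rate. The gap as a share of the range is in brackets after each gene, and signals are normalized log2 values. Prodh read 9.10 on Hb replicate 1 and 8.94 to 8.97 on the other 3 weak-ligand arrays (0.852). Hic1 stood at 5.196 on gp250 replicate 1 and 4.96 to 4.97 on the other 3 weak-ligand arrays (0.949). H3c1 measured 9.06 on gp250 replicate 1 and 9.33 to 9.36 on the other 3 weak-ligand arrays (0.904). Pik3r1 was 11.88 on Hb replicate 2 and up to 12.03 on the other 3 weak-ligand arrays (0.841). Rem2 read 5.67 on gp250 replicate 2 and 5.48 to 5.50 on the other 3 weak-ligand arrays (0.87). Tube1 stood at 11.65 on Hb replicate 2 and 11.82 to 11.84 on the other 3 weak-ligand arrays (0.884). Tspan3 measured 10.32 on gp250 replicate 1 and 10.48 to 10.51 on the other 3 weak-ligand arrays (0.844). Csnk1d was 10.39 on Hb replicate 1 and 10.48 to 10.49 on the other 3 weak-ligand arrays (0.835). Lpcat4 read 5.39 on Hb replicate 2 and 5.02 to 5.03 on the other 3 weak-ligand arrays (0.985). Plcb3 stood at 8.23 on gp250 replicate 1 and 8.02 to 8.05 on the other 3 weak-ligand arrays (0.84). Acox3 measured 8.90 on Hb replicate 1 and 8.71 to 8.73 on the other 3 weak-ligand arrays (0.901). Cd69 was 9.16 on gp250 replicate 1 and 8.977 to 9.004 on the other 3 weak-ligand arrays (0.854). In each of these 12 genes the array that stood apart lay on the same side of both MCC arrays as the other 3. Lpcat4, an acyltransferase of phospholipid remodelling, and Hic1 were not well above background on the weak-ligand arrays.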

How the results depend on the processing

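No scaling between arrays changed the balance of the response: 5281 probes were called higher and 2194 lower, so that 70.6% of the called probes were higher, against 48.3% in the reported fit. Of 72 counts of family members called higher or lower, 41 moved by over 1.5 times under at least 1 alternative, 32 of them without scaling. Of 233 named genes followed under 18 alternatives, 0 changed direction, and 7 lost their call in at least 1: H2ac10, Cnot6, Hey1, Ctnnbip1, Rara, Cdh11 and Trim35. Leaving out 1 array at a time gave 5947 to 6962 called probes, 2900 to 3368 higher, 3047 to 3597 lower and 2086 to 2120 called at least 2-fold. In 2 of these fits MCC was left with 1 array, which was taken to vary like the others. Probes detected with MCC alone numbered 260 to 363 with an array left out, against 237, and 363 without MCC replicate 2; probes detected with the weak ligands alone numbered 467 to 666, against 447. Such counts grow by construction when fewer arrays must meet the rule. At a detection p under 0.01 they were 325 and 502. The fit with the replicate block called 7075 probes and moved no call among the 233 followed genes. Klf1 and Krt8, described as markers of other cells, were not among the 233 and lost their call under several settings. Most of the 233 were chosen for called changes on these same arrays, so their constant direction is no independent check. Under the remaining settings 6191 to 7534 probes were called. With an offset of 50, 1602 called probes reached 2-fold, and 2676 did on the processed values the authors deposited. Dim probes have larger errors, and their folds are understated by the offset.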

Other observations

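The 4 probes called at least 2-fold on which gp250 and Hb lay 1.5-fold or more apart were chosen after their values were seen. Ccl3, a chemokine, read 8.69 and 8.54 with MCC, 5.16 and 5.24 with gp250, and 5.58 and 6.05 with Hb, and its probe was detected on 1 of the 4 weak-ligand arrays. Serinc5, a membrane protein, read 5.06 and 4.97 with MCC, 6.72 and 6.73 with gp250, and 5.94 and 6.04 with Hb. Srrd read 7.47 and 7.34 with MCC, 6.86 and 6.46 with gp250, and 6.12 and 5.96 with Hb. Cpeb1, which controls polyadenylation and translation of messages, read 5.40 and 5.56 with MCC, 6.90 and 6.94 with gp250, and 6.44 and 5.88 with Hb. Between gp250 and Hb limma called 0 of the 4. In Ccl3 and Srrd the MCC arrays were above all others, and in Serinc5 and Cpeb1 below.

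Probes of 1 gene did not always move together. Of 2137 genes with more than 1 tested probe, 1160 had more than 1 called probe, 42 had called probes in opposite directions, and 7 had such probes at 1.5-fold or more each way. Actb, cytoplasmic beta actin, had 5 probes. Its 3 brighter probes were higher with MCC by 0.54 ± 0.07, 0.58 ± 0.08 and 0.96 ± 0.12 (log2), and its 2 dimmer probes changed by -1.60 ± 0.17 and -1.62 ± 0.21. Prf1, the pore-forming protein perforin, changed by -0.84 ± 0.10 on its brighter probe and by 1.14 ± 0.09 on the other. Sgk3, a kinase of the AGC group, rose by 0.74 ± 0.11 on its brightest probe, while the other 4 changed by -0.64 to -1.28. Smad5, which carries BMP signals, changed by -0.75 ± 0.11 and -0.36 ± 0.12 on 2 probes and rose by 0.79 ± 0.17 on the third. Ift81, of ciliary transport, rose by 0.69 ± 0.10 on its brightest probe and changed by -0.88 ± 0.13 and -0.63 ± 0.09 on the other 2. Fnbp1 changed by -0.89 ± 0.16 and 0.76 ± 0.08 on its called probes, and Cdc42se1 by -0.65 ± 0.08 and 0.82 ± 0.07. Which transcript each probe reads was not analysed here.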
